A study of Mus musculus with 10 samples.

Results

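Dazl (deleted in azoospermia-like) encodes an RNA-binding protein of the DAZ family that germ cells need to develop. Its CpG-rich 5′ end was examined here cytosine by cytosine in mouse fetal testis cells enriched for prospermatogonia. Prospermatogonia are the fetal male germ cells that precede spermatogonia. All CpG cytosines in a fixed window around the Dazl start on chromosome 17 were taken, by position and strand and without regard to their level, and these were 62 of the 1348062 CpG cytosines measured in every sample. DNA methylation had been measured by reduced representation bisulfite sequencing (RRBS), in which the enzyme MspI cuts DNA at CCGG and the ends of the resulting short fragments are read, so that only stretches next to such sites are seen. The control group (5 samples) came from fetuses of C3H/HeN dams given tap water throughout gestation, and the arsenic group (5 samples) from fetuses of C3H/HeN dams given sodium arsenite in tap water from mid gestation until the testes were collected late in gestation. No allele was modified in either group. Testes of many male embryos went into each sample, whose cells were enriched with magnetic beads through the surface antigen CD90.2 (Thy1.2) with few testes of any one dam in a pool, so the pool and not the embryo is the replicate.

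Methylation of cytosine in CpG dinucleotides at a gene start generally goes with silence of that gene. Germ cell genes such as Dazl are a textbook case, being methylated in body cells, losing methylation in primordial germ cells and expressed there. Prospermatogonia lie in the period in which the male germ line regains methylation over most of its genome, while most CpG-rich gene starts stay free of it. The Dazl protein binds RNA and promotes translation of transcripts needed for germ cell fate and meiosis.

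The Dazl gene lies on the minus strand of chromosome 17, and in the GENCODE M21 annotation of GRCm38 (mm10) its transcript starts at 50293636, with exon 1 at 50293407 to 50293636. The covered cytosines ran from 50293615, 21 b downstream of the start, to 50292775, 861 b downstream. Of the 62 cytosines, 22 lay in the 5′ untranslated part of exon 1 and 40 in intron 1, where 5 of the latter were also in the first exon of a shorter annotated transcript (50292821 to 50292892). This stretch is a dense CpG island in the reference genome, with 82 CpGs in 862 b and a G and C share of 69.7%. The 46 CpGs of the 1 kb upstream of the start held 0 of the cytosines measured in every sample. The next measured cytosine upstream was 10777 b from the start. The label promoter therefore refers here to the transcribed side of the start alone.

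The covered cytosines fell in 6 MspI fragments, numbered from the start. Fragment 1 (50293495 to 50293622) held 15 cytosines from 21 to 140 b downstream, and fragment 2 (50293385 to 50293498) held 9 from 159 to 250 b. Fragment 3 (50293262 to 50293365) and fragment 4 (50293118 to 50293243) held 6 each, from 272 to 308 b and from 394 to 506 b. Fragment 5 (50292974 to 50293121) held 18 from 529 to 661 b, and fragment 6 (50292741 to 50292867) held 8 from 770 to 861 b. Fragments 1, 2 and 5 were measured on the plus strand (42 cytosines) and fragments 3, 4 and 6 on the minus strand (20 cytosines). At Dazl 0 CpGs were read on both strands, whereas 46.6% of all measured cytosines had a partner on the other strand, so position, strand and fragment cannot be told apart in the profile below.

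The results turn on the change from methylated to unmethylated DNA in intron 1, and 2 adjoining stretches of the reference sequence show it, both given on the strand of the gene. In the first, chr17:50293111-50293406 (GRCm38, minus strand, 230 to 525 b downstream of the start), capitals mark the 14 measured of 16 CpGs, and the mean level along the stretch went from over 70% at its 5′ end to under 10% at its last measured CpG. In the second, chr17:50292893-50293110 (GRCm38, minus strand, 526 to 743 b downstream), capitals mark matches to GCGGGA, the core of the E2F6 motif, or to its reverse complement, and to CACGTG, the E-box. It holds 31 CpGs, of which 18 were measured, all from 529 to 661 b downstream, and nearly all reads at these were unmethylated. The rest of the stretch, beyond 661 b, was not measured, so its name refers to the measured part alone. The reference is of strain C57BL/6J, and the pools were of strain C3H/HeN.
Dazl intron 1 boundary: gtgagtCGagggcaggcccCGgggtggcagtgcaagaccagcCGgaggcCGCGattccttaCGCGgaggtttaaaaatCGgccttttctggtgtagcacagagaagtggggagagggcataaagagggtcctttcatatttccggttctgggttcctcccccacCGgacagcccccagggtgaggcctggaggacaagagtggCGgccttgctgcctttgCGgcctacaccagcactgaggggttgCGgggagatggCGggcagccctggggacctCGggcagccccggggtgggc
Dazl intron 1 unmethylated: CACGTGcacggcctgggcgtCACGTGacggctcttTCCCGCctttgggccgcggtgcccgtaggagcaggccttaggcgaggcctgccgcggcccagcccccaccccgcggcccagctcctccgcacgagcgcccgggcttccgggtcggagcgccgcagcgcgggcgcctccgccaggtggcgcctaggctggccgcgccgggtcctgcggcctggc

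Total calls per sample over all cytosines ranged from 44207245 to 66570870, and median coverage from 25 to 40 reads. At Dazl each cytosine had between 10 and 85 reads in a sample. The median number of reads per cytosine in a sample was 43 to 84 in fragment 1, 10 to 54 in fragment 4 and 14 to 43.5 in fragment 5. For 1 cytosine in 1 sample the counting error was wide. At the cytosine nearest to the start, 65 of 73 reads were methylated in arsenic sample 5 (89.0%, Wilson 95% interval 79.8 to 94.3%) and 22 of 47 in arsenic sample 2 (46.8%, 33.3 to 60.8%), and these intervals did not overlap. In fragment 4, 6 of 10 reads in control sample 4 gave 60% with an interval of 31.3 to 83.2%. The intervals cover counting error alone, and the sources used here name no molecular identifiers for the reads.

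In these enriched pools, the Dazl 5′ end was methylated over the exon and the beginning of the intron and almost free of methylation beyond. The mean level over the 10 samples was 64.2% in fragment 1, 68.7% in fragment 2 and 75.2% in fragment 3. It was 41.2% in fragment 4, and then 1.39% in fragment 5 and 1.92% in fragment 6. Every sample showed this order of high and low stretches, with fragments 1 to 4 together between 53.5% and 82.1%, and fragments 5 and 6 together between 0.870% and 2.67%, so that the ranges lay far apart.

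**Figure D1:**
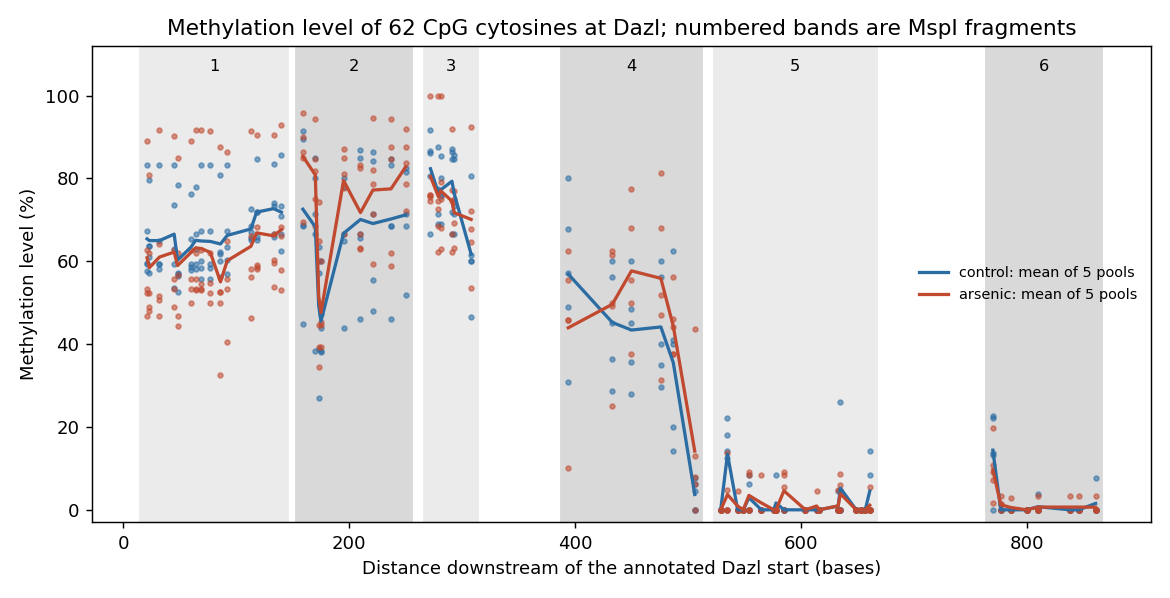
Methylation level (percent, y axis) of the 62 Dazl cytosines against distance downstream of the annotated start (bases, x axis), with 1 point per sample, blue for control and red for arsenic, and lines for the mean of the 5 samples of each group within each numbered MspI fragment. Both groups are high to 308 b, fall across fragment 4 and lie near 0 from 529 b on.

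Among the measured cytosines, the change from methylated to unmethylated took place between 308 and 529 b. From 308 b, the last cytosine of fragment 3, to 394 b, the first of fragment 4, the mean level fell by 15.5 points. This step crosses a gap between fragments, and the cytosine at 394 b is the first base of its reads, at the MspI cut. Within fragment 4, from 487 to 506 b, it fell by 31.0 points, from 39.9% to 8.95%, and the farther cytosine was lower in 10 of 10 samples. At 487 b (50293149, minus strand) the levels were 40, 62.5, 14.3, 20 and 40.9% in control samples 1 to 5 and 37.7, 37.5, 56.2, 44.1 and 46.2% in arsenic samples 1 to 5. At 506 b (50293130, minus strand) they were 7.69, 6.25, 0, 0 and 4.55% in the control samples and 12.96, 6.25, 43.8, 0 and 8% in the arsenic samples. Arsenic sample 3 stood above the others at 506 b, with 14 of 32 reads methylated (Wilson 95% interval 28.2 to 60.7%). At 529 b (50293107, plus strand) the level was 0 in all 10 samples, at 14 to 44 reads.

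Over fragments 5 and 6, 130 of 8487 reads at the 26 cytosines were methylated (1.53%). A level of 0 was found in 215 of the 260 values, and 9 cytosines had no methylated read in any sample. With 12 reads, the lowest number here, a count of 0 allows a level of up to 25%, and with 80 reads up to 3.75%. The lowest cytosine of fragment 6, at 800 b (50292836, minus strand), was at 0 in every sample, and so were 8 cytosines of fragment 5.

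A pair of cytosines had mean levels above 5%. The cytosine at 770 b (50292866, minus strand), the highest of fragment 6, had a mean of 12.04%, with 13.3, 0, 13.7, 22.7 and 22.2% in control samples 1 to 5 and 10.8, 9.09, 1.75, 19.6 and 7.14% in arsenic samples 1 to 5. It is the first base of its reads, at the MspI cut. Over all measured fragments with at least 5 inner cytosines and an inner mean under 2% (25012 fragments), first bases averaged 5.73%. These were 27444 cytosines, 55.3% of them above 5%. The inner cytosines averaged 0.731%, a value that the selection itself held under 2%, whereas the first bases were not bounded. Without the first bases, 74 of 7830 reads were methylated in fragments 5 and 6 (0.945%). The other, at 535 b (50293101, plus strand), lay inside its reads and had 12.5, 14.3, 18.2, 22.2 and 0% in the control samples and 0, 13.6, 0, 4.76 and 0% in the arsenic samples. The levels of the groups overlapped there.

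Inside the methylated part, the cytosines of a fragment differed least in fragment 1 and most in fragment 4, relative to counting error. Within fragment 1, the variance over the 15 cytosines of a sample was a median of 0.650 times that expected of binomial counting, from 0.234 to 1.04 over the samples, against a median of 2.53 over 15836 fragments with at least 5 cytosines at 20 to 80%. The 15 cytosines of fragment 1 are covered by largely the same reads and are not independent of each other. The corresponding medians were 2.12 in fragment 2 and 0.858 in fragment 3, both below that of the 15836 fragments. The median was 4.93 in fragment 4, where the fall toward 506 b lies.

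In fragment 2 a pair of neighbouring cytosines was lower than those on either side. At 173 b (50293463, plus strand) the levels were 38.9, 26.9, 57.1, 63.4 and 60% in control samples 1 to 5 and 44.7, 34.5, 65.0, 39.4 and 74.3% in arsenic samples 1 to 5. At 175 b (50293461, plus strand) they were 47.2, 38.5, 38.1, 43.9 and 60%, and 44.7, 39.3, 60, 45.5 and 48.6%. The pair averaged 48.5% and the other 7 cytosines of the fragment 74.5%. The difference of 26.0 points had the same direction in 10 of 10 samples, from 12.9 to 37.4 points. The pair lies in the 5′ untranslated part of exon 1 and was picked as the lowest of its fragment after the values were seen, so no test was made of it.

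The highest cytosine of the whole stretch was the first of fragment 3, at 272 b (50293364, minus strand), with a mean of 81.4% and from 66.7% in control sample 2 to 100% in arsenic sample 5. Like the cytosine at 770 b, that at 272 b is the first base of its reads, at the MspI cut. The last cytosine of fragment 3, at 308 b, had 65.9%.

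**Figure D2:**
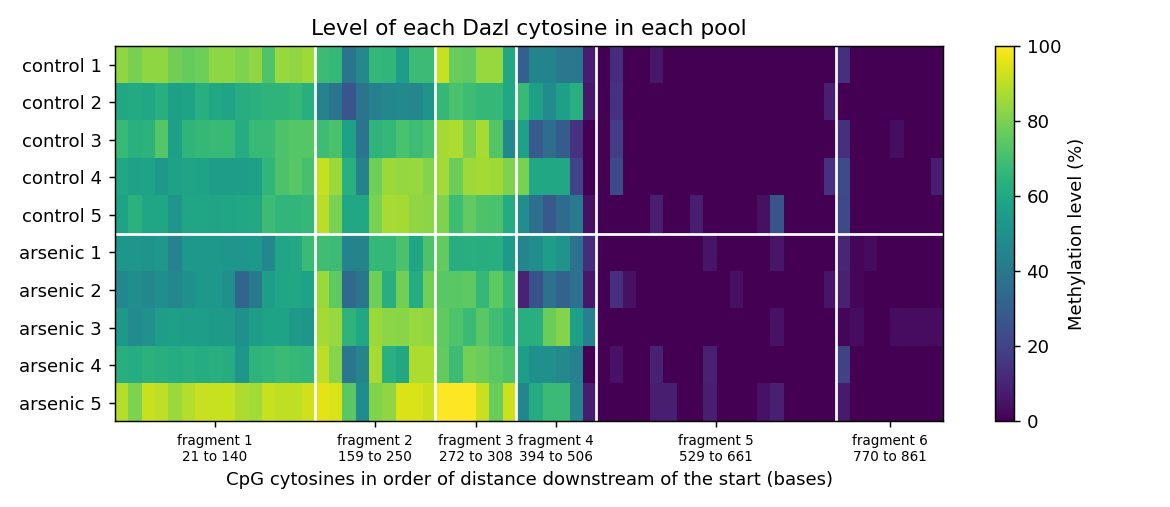
Methylation level (colour, percent) of each Dazl cytosine (columns, in order of distance downstream of the start, with white lines between MspI fragments) in each of the 10 samples (rows, control above, arsenic below). The low pair of fragment 2 appears as a dark stripe in nearly all rows, arsenic sample 5 is the brightest row in fragments 1 to 3, and fragments 5 and 6 are dark in every row.

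The samples of a group differed from each other in the methylated fragments. In fragment 1 the levels were 81.3, 61.6, 67.2, 60.6 and 61.1% in control samples 1 to 5 and 53.7, 50.001, 54.3, 63.2 and 89.3% in arsenic samples 1 to 5. The highest sample of each group lay above its other 4, by a gap that was 0.683 of the range among controls and 0.665 of it among arsenic samples, short of Dixon's critical value for 5 samples. Arsenic sample 5 was the highest of all 10 samples at 15 of 15 cytosines of fragment 1 and at 26 of the 36 cytosines of fragments 1 to 4 (72.2%), against 18.2% of the 517322 measured cytosines with a mean of 20 to 80%. Arsenic sample 2 was the lowest at 9 of 15 cytosines of fragment 1. The variance between samples of a group in a fragment's mean level was divided by that of binomial counting at the median reads of 1 cytosine. In fragment 1 this ratio was 2.602 for the control group and 7.46 for the arsenic group, with a median of 0.921 over the fragments described above. In the control and arsenic groups it was 2.69 and 1.48 in fragment 2, 0.840 and 2.57 in fragment 3, and 1.06 and 2.64 in fragment 4. Averaging over cytosines lowers the ratio more where neighbours are less alike, so fragments are not on quite the same scale.

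The order of the samples was shared in part between fragments. Fragment 2 had 60.7, 42.8, 64.3, 77.5 and 78.7% in the control samples and 62.6, 66.0, 79.3, 71.3 and 84.3% in the arsenic samples, with control sample 2 far below the rest and arsenic sample 5 on top. Fragment 3 had 79.0, 66.7, 76.9, 83.6 and 71.7%, and 63.4, 72.3, 70.8, 74.5 and 93.5%, with arsenic sample 5 on top. Fragment 4 had 34.7, 49.6, 27.6, 46.7 and 32.2%, and 42.2, 24.6, 63.9, 41.1 and 49.6%, with arsenic sample 3 on top. Across the 10 samples, Pearson's r of fragment 1 was 0.772 with fragment 3, 0.177 with fragment 2 and 0.0357 with fragment 4, described without a test because the fragments come from the same libraries. The mean over the 62 cytosines also moved with the mean of all measured cytosines (r = 0.678 over 10 samples), which was lowest in arsenic sample 1 (42.1%) and highest in arsenic sample 5 (47.3%). The part of these library-wide levels in the Dazl values was not tested.

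Arsenic in the mother's drinking water was compared with tap water to ask whether the methylation of prospermatogonia differed. At Dazl no difference between the groups passed the tests that take the sample as the replicate. Over the 62 cytosines the level was 39.99, 32.7, 36.3, 39.6 and 37.4% in control samples 1 to 5 and 32.7, 31.7, 38.1, 37.5 and 48.4% in arsenic samples 1 to 5. The groups overlapped, and the highest sample was arsenic sample 5. The means were 37.2% ± 2.93 (SD, n = 5) in the control group and 37.7% ± 6.64 (SD, n = 5) in the arsenic group, a difference of 0.487 points (SE 3.25). Two-sided exact permutation of the samples gave p = 0.897. In limma over all 17600 gene start windows, the change on the log2 scale of methylated over unmethylated reads was -0.20 (95% interval -1.01 to 0.61, adjusted p = 0.958). This sign was opposite, and the difference in level with reads summed over cytosines, as this fit takes them, was -3.21 points. Without arsenic sample 5 the difference in level was -2.20 points and without control sample 2 it was -0.628 points, neither past the threshold. No window passed an adjusted p of 0.05 in limma (0% called), and 936 had an unadjusted p under 0.05.

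Fragment by fragment, the arsenic mean was lower in fragment 1 and higher in fragments 2 and 4. In fragment 1 the means were 66.3% ± 8.75 (SD, n = 5) for control and 62.1% ± 16.0 (SD, n = 5) for arsenic, and 4 of 5 arsenic samples lay below the control mean (limma over 164314 fragments, adjusted p = 0.961). In fragment 2 they were 64.8% ± 14.6 and 72.7% ± 9.04 (SD, n = 5 each, adjusted p = 0.827). In fragment 3 they were 75.6% ± 6.53 and 74.9% ± 11.2 (adjusted p = 0.980), and in fragment 4 they were 38.2% ± 9.51 and 44.3% ± 14.3 (adjusted p = 0.881). In the unmethylated part they were 1.59% ± 0.7101 and 1.18% ± 0.744 in fragment 5 (adjusted p = 0.810) and 2.09% ± 1.41 and 1.76% ± 0.658 in fragment 6 (adjusted p = 0.994). With so few methylated reads, the log2 ratio in limma depends on coverage and on the pseudocount as well as on level. In fragment 6 the change in it was -0.0316 with a pseudocount of 1 and 0.138 with 0.5. The groups overlapped in all 6 fragments. The difference in fragment 2 fell from 7.90 to 2.39 points without control sample 2, and that in fragment 4 was 6.13 points, 1.21 without arsenic sample 3 and 11.05 without arsenic sample 2. The difference in fragment 1 was -11.0 points without arsenic sample 5 and -0.507 points without control sample 1, and that of fragment 3 turned positive without any one of control samples 1 and 4 and arsenic samples 1 and 3. On the log2 scale of methylated over unmethylated reads the 95% intervals were -1.37 to 1.04 in fragment 1 and -0.50 to 1.58 in fragment 2. Across all fragments limma called 0%, with 11317 at an unadjusted p under 0.05.

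**Figure D3:**
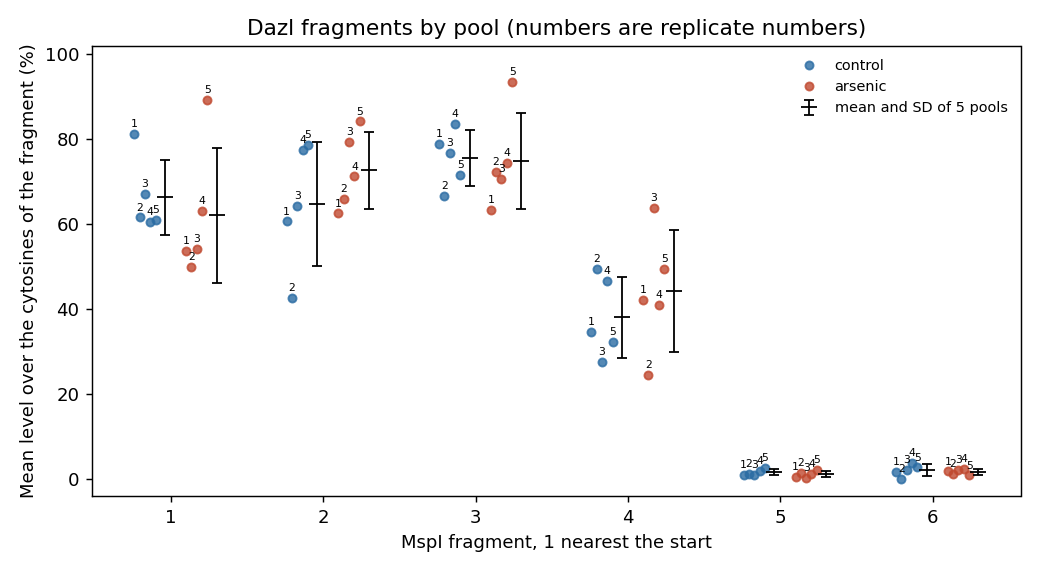
Mean methylation level (percent, y axis) over the cytosines of each Dazl MspI fragment (x axis, 1 nearest the start), with 1 point per sample marked by its replicate number, blue for control and red for arsenic, and black bars for the mean and SD of 5 samples. The groups overlap in every fragment, and arsenic sample 5 is the highest sample in fragments 1, 2 and 3.

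Joined into regions by gaps of at most 100 b, fragments 1 to 5 formed a region of 54 cytosines with a difference of 0.608 points (adjusted p = 0.967), and fragment 6 formed one of 8 cytosines with a difference of -0.327 points (adjusted p = 0.994). Limma called 0% of the 139746 regions, with 9903 at an unadjusted p under 0.05.

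Of the single cytosines, none was called different. A logistic regression of the reads (thresholds of q 0.01 and 10 points between the summed reads of the groups) called 0 of 62 lower and 0 of 62 higher in the arsenic group. Over all measured cytosines it called 1.48% lower and 0.784% higher. At shares this small, 0 of 62 does not set Dazl apart. Limma called 0 of 62, with 1 cytosine at an unadjusted p under 0.05, and 0% of all cytosines, with 80916 at an unadjusted p under 0.05. That 1 cytosine was the one at 535 b, at 13.4% ± 8.39 (SD, n = 5) in control and 3.68% ± 5.94 (SD, n = 5) in arsenic. Limma across all cytosines gave it an unadjusted p = 0.0308 and an adjusted p = 0.830, and exact permutation gave p = 0.103. Near 0 the ratio taken by limma also follows coverage. At 800 b, where every sample was at 0, the unadjusted limma p was 0.0841. At 0 of 62 were the groups free of overlap, against 0.219% of all cytosines with the arsenic group entirely higher and 0.474% with it entirely lower. The arsenic mean was lower at 28, higher at 25 and equal at 9 of the 62, with differences from -12.96 to 14.3 points. It was lower at 15 of 15 cytosines of fragment 1 and higher at 15 of the 21 of fragments 2 to 4, where neighbours share reads and are not independent. Without arsenic sample 2 or without arsenic sample 5 the logistic regression called 1 cytosine lower, and without arsenic sample 5 the groups were free of overlap at 1.

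The Dazl start window held methylated and unmethylated stretches side by side. Of 9356 windows of 1 kb on either side of a start with at least 20 cytosines, 96.0% had a lower mean level. The Dazl window had 24 cytosines under 5% and 32 at 50% or more. At least 10 of each kind were found in 39 windows, 0.417% of those with 20 or more cytosines, a count made after the Dazl values were seen. The SD of the Dazl level over the 10 samples was 4.85 points, against a median of 5.45 over 298 windows at 20 to 60%. The Dazl mean includes the 26 cytosines of fragments 5 and 6, near 0 in every sample, which lower its SD. Fragments 1 to 4 alone ran from 53.5 to 82.1%, with an SD of 4.77 in control and 11.3 in arsenic samples. The 298 windows were not matched to Dazl for such a mixture.

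Other germ cell genes with CpG-rich starts had higher mean levels in their start windows than Dazl, while fragments 1 to 4 of Dazl alone, at 63.4%, lay within the range of those genes. Of a list of 14, 10 had at least 5 measured cytosines in the window of 1 kb on either side of the start, and their levels ran from 48.5 to 69.7%, with 0 cytosines under 5% in any of them. Their cytosines were not matched to those of Dazl by distance from the start. Sycp3 and Sycp1, of the synaptonemal complex, had 48.5 and 54.3%, and Hormad1, a protein of the meiotic chromosome axis, had 62.6%. Ddx4, an RNA helicase of germ cells, had 66.0%, and Mael, Asz1 and Rnf17, which act in the piRNA pathway, had 65.3, 69.3 and 53.9%. Brdt, a testis bromodomain protein, had 61.4%. Taf7l, a germ cell transcription factor subunit, had 69.7%, and Slc25a31, an ADP/ATP carrier of the testis, had 66.7%. The arsenic mean was higher in 8 and lower in 2 of these 10, with a median difference of 5.76 points, and 0 passed limma's test. Over all start windows it was higher in 9645 and lower in 7948, with a median difference of 0.0834 points. Most of those windows were near 0, with a median control level of 1.78% against 61.6% for the list. Their differences are therefore not a matched background for the list, and windows of like level were not compared.

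The mean of the germline list over its 10 genes was 59.9, 54.7, 59.3, 61.4 and 59.998% in control samples 1 to 5 and 51.9, 59.5, 64.6, 69.6 and 76.6% in arsenic samples 1 to 5. Arsenic sample 5 was highest and arsenic sample 1 lowest. Across the 10 samples its r with the Dazl window was 0.824, given as a description of samples that share their libraries.

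The starts of imprinted genes that carry methylation on the maternal allele give a view of sites that male germ cells keep unmethylated. Of 10 listed, 7 were measured. Their levels were 4.88% for Plagl1, 19.8% for Kcnq1ot1, 31.6% for Nap1l5, 37.7% for Peg10, 38.4% for Zrsr1, 43.7% for Nnat and 47.3% for Mcts2. The list mean was lowest in arsenic sample 1 (24.0%) and highest in arsenic sample 5 (41.3%), and its r with the Dazl window over 10 samples was 0.633. The arsenic mean was higher in 3 and lower in 4, and 0 were called. These levels and that of Dazl are means over all cells of pools enriched for prospermatogonia, and purity was not measured here. The part of other testis cells in them was not tested.

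**Figure D4:**
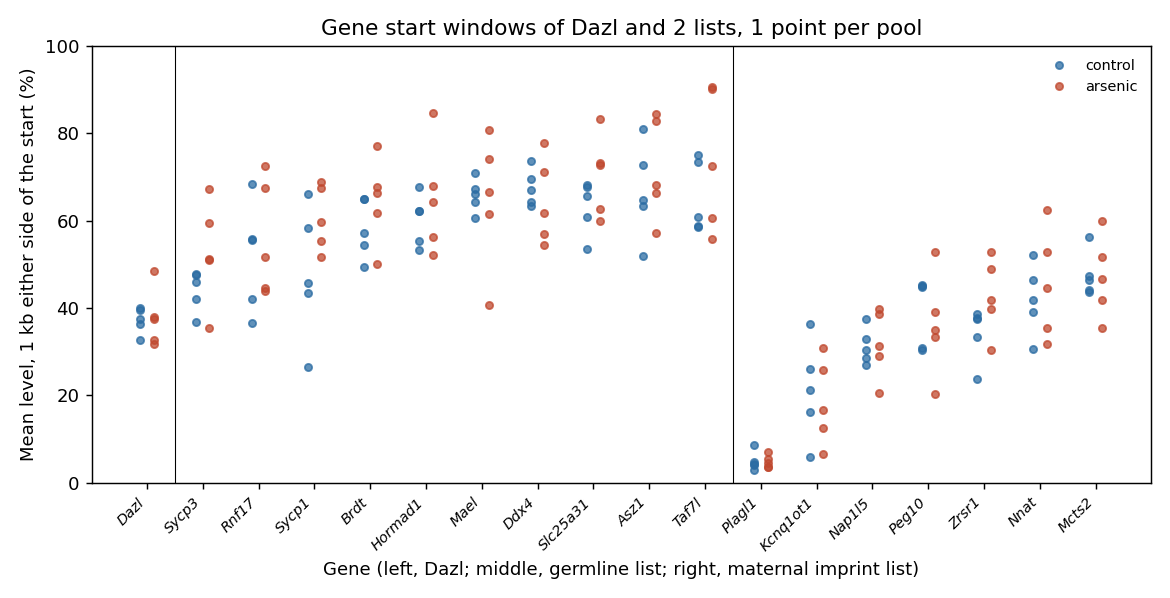
Mean methylation level (percent, y axis) in the window of 1 kb on either side of the gene start, 1 point per sample, blue for control and red for arsenic, for Dazl (left), the 10 measured germline genes (middle) and the 7 measured maternal imprints (right). Dazl lies below the germline genes, whose means run from 48.5 to 69.7%, and within the range of the maternal imprints.

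The labelled cell type could be checked through methylation alone, not through expression. Of 6 genes of prospermatogonia 3 were measured, namely Dppa3 (54.0%), Ddx4 and Dazl itself, and all of them were partly methylated. Of 5 Sertoli cell genes 3 were measured, at 0.848% (Sox9), 4.26% (Dhh) and 1.32% (Wt1), of 5 Leydig cell genes 2, at 10.6% (Insl3) and 6.68% (Nr5a1), and of 2 myoid cell genes 1, at 5.39% (Myh11). The lists for vessels and blood and for the sorting antigen had 0 measured genes. The marker windows of other testis cells were thus at low levels in these pools, as were most start windows. Over all 17600 start windows the median level was 1.78% in the control group, and 4206 windows had 20% or more. A low level at such a start is therefore usual and does not tell cell types apart. The cell content of the pools was not tested by these values. Between the groups, 0 of all these genes were called.

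Values are given for 4 further genes that act in germ cells. Tex14, a protein of the bridges between germ cells, had 61.6%, and Tdrd7, a component of germ granules, had 14.3%. Rbm46 and Ythdc2, which bind RNA, had 3.38 and 1.218%. The arsenic mean was higher in Tex14, Tdrd7 and Rbm46 and lower in Ythdc2, and 0 of the 4 were called.

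The gene starts whose level across the 10 samples was most like that of Dazl were sought among 107 windows with at least 20 cytosines and a mean level within 10 points. These were CAAA01189291.2 (r = 0.919), an antisense transcript on chromosome 17, Lrrc4 (r = 0.790), Gm37985 (r = 0.780), Map10 (r = 0.775) and Madcam1 (r = 0.759). The median r over all 107 was 0.495, and 95.3% of them were above 0, so a positive r was usual among windows of this level.

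Sequence motifs were searched on both strands. In the RefSeq promoter sequence of Dazl (GRCm38, 250 b before to 50 b after a start annotated a few bases inside the GENCODE start), GCGGGA had 0 matches, as did the E-box CACGTG and the TATA sequence TATAAA, and there was 1 match to CCAAT. Of 32851 promoters of this length, 19.98% held GCGGGA, 7.15% CACGTG, 13.6% TATAAA and 37.4% CCAAT. In fragment 5, in the unmethylated sequence above, CACGTG occurred at 526 to 531 b and at 546 to 551 b, and GCGGGA, on the other strand, at 561 to 566 b. The measured cytosines in these matches had mean levels of 0, 0 and 0.833%. Another GCGGGA lay in fragment 6 at 845 to 850 b, with a measured cytosine at 0.328%. Fragments 1 to 4 held none of the 4 motifs. Of 113170 MspI fragments of 100 to 200 b with a measured cytosine, 6.68% held GCGGGA, 2.34% held CACGTG and 251 (0.222%) held both. A match is a description of letters, not of binding.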

How the data were processed

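RRBS libraries of 5 control and 5 arsenic pools were sequenced by the authors, who trimmed the reads (Trim Galore 0.6.5), aligned them to mm10 (Bismark 0.22.3) and merged cytosines with at least 10 reads in every sample (methylKit 1.22.0). The deposited table holds, per cytosine and strand, the coverage and the counts of methylated and unmethylated reads as counts that the authors did not normalize. No step that removes duplicate reads is given in the sources used here. Of 1349101 entries, the 1348062 on the assembled nuclear chromosomes were kept. One arsenic pool of low depth had been left out by the authors.

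A level was methylated reads over coverage in percent, and a segment's level the unweighted mean over its cytosines. Single cytosines were tested by logistic regression on reads, which ignores the spread between pools. Cytosines, start windows (1 kb on either side, at least 5 cytosines), regions (gaps of at most 100 b, at least 3 cytosines) and MspI fragments (at least 3 cytosines) were each tested over the whole table with limma 3.58.1 on log2 of methylated over unmethylated reads with a pseudocount of 1 and Benjamini-Hochberg adjustment. Single values were also tested by exact permutation over 252 assignments. The scripts were tested on simulated data. Software was R 4.3.3, Python 3.11.15, numpy 2.4.6, pandas 2.3.3 and scipy 1.17.1. By rule, the cytosines named are the ends of the covered stretch, the highest and lowest of each region and any that were called. The first and last cytosines of fragments and those at 173, 175, 487 and 535 b were chosen after their values were seen. Other genes named are the measured members of the lists and the 5 windows most like Dazl. Members and lists were chosen with earlier results of these data known, and the test on fragments was added after seeing the data. An item of one gene list is not reported here.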

Additional observations from a re-analysis of the deposited data

How the results depend on the processing

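No alternative brought the Dazl difference past its threshold. The adjusted p of the window ranged from 0.904 to 0.998 over the alternatives with a limma test. Exact permutation gave p = 0.897 without an adjusted p. Reads summed over cytosines are what the main limma fit takes, so that alternative had no test of its own. Of all 23 alternatives, 6 turned the sign of the difference. The main value of 0.487 points became -0.171 with at least 20 reads in every sample (37 cytosines), -4.24 with at least 30 reads (15 cytosines, those of fragment 1), -3.21 with reads summed over cytosines and -3.96 from 1 kb upstream to 100 b downstream of the start (11 cytosines). Leaving out 1 sample gave -2.20 to 1.99 for the window, with the sign turned without control sample 2 (-0.628) and arsenic sample 5 (-2.20). For the region of fragments 1 to 5 it gave -2.51 to 2.32, and for fragment 6 and its region -0.849 to 0.101. Fragment 3 ranged from -5.32 to 2.20. Fragment 6 joined to the others by gaps of up to 300 b had 0.487. The control mean level was 53.5% with at least 20 reads, 66.3% with at least 30 and 46.2% with summed reads, and the arsenic mean 53.3% and 62.1% with at least 20 and 30 reads. Without arsenic sample 2 or arsenic sample 5 the logistic test called 1 cytosine lower, and without arsenic sample 5 1 cytosine had no overlap, so both counts ranged from 0 to 1.

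Replicate numbers shared between the groups did not pair the samples (correlations of deviations from -0.0149 to 0.0367), and with a replicate block the window difference was 0.487 points with an adjusted p of 0.966 and 0 cytosines were called by limma.

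Depth limits fragments 4 and 5 most, with medians down to 10 reads in fragment 4 (control sample 4) and 14 in fragment 5 (control sample 2). Each stretch was read on 1 strand, and the upstream side of the start had 0 cytosines in the window that were measured in every sample. Duplicate reads would make the counting intervals too narrow.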
